A study of Homo sapiens with 3 samples.

Results

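The proteasome genes are the protein-coding genes named PSMA to PSMG in the deposited gene tables. They were chosen by name alone, as PSM followed by a letter from A to G and a number, which gave 48 of 58243 genes listed, 19818 of them protein-coding. By position in the complex they fall into 19 core genes (PSMA, PSMB), 20 cap genes (PSMC, PSMD), 5 activator or regulator genes (PSME, PSMF) and 4 assembly factors (PSMG).

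The libraries are labelled as LoVo, an established human colorectal carcinoma line. The line carries a Tet-On hairpin RNA (a doxycycline-switched shRNA) against HRD1, the ubiquitin ligase of the endoplasmic reticulum encoded by SYVN1. Doxycycline was given at 1 µg/ml for 0, 3 or 5 days, and there is 1 RNA-seq library at each time (3 libraries in all). Every library carries the hairpin, so the day 0 library is the uninduced line. No library of doxycycline without the hairpin was analysed here, so the agent, the knockdown and the days in culture cannot be told apart, and no source used here says whether the line is 1 clone.

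The proteasome is the protease that degrades proteins marked with ubiquitin. Its core is a barrel of stacked rings in which alpha subunits form the gate and beta subunits hold the active sites; a cap made of an ATP-driven base and a lid binds ubiquitin chains, removes them and feeds the unfolded protein into the barrel. HRD1 acts upstream of it: misfolded proteins of the endoplasmic reticulum that HRD1 ubiquitinates are pulled into the cytosol and degraded there. In many cells the subunit genes are raised together by the transcription factor NRF1 (NFE2L1), itself a protein of the endoplasmic reticulum that is turned over by HRD1, through antioxidant response elements in their promoters. Interferon swaps the catalytic beta subunits for the immunoproteasome forms PSMB8, PSMB9 and PSMB10 and raises the activator PSME1-PSME2.

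The libraries held between 21308785 and 25754188 total gene reads, and a ratio between 2 of them has no replicate check. Values below are therefore descriptions of these libraries, given with 95% intervals that cover counting error only. A gene was counted as higher or lower at 1.2-fold or more, of TMM-normalised reads, when its interval excluded a ratio of 1, and only the 12593 genes whose mean over the libraries reached 50 reads were compared. SYVN1 itself had 1212, 650 and 709 reads on days 0, 3 and 5, and log2 ratios of -0.88 and -1.05 to day 0. As for the labelled cell type, 3 of 11 colon epithelial markers reached 1 TPM in each library (KRT8, KRT18 and KRT19), and CDX2 had 0 reads in all 3. The other colon markers stayed under 1 TPM in every library. Among them EPCAM had 17, 14 and 19 reads on days 0, 3 and 5, and CDH1 had 3, 2 and 10. The mesenchymal marker VIM (vimentin) had 4016, 4130 and 3588 TPM. How well the markers match the label was not tested. Bulk RNA cannot tell fewer cells of a type from less RNA per cell.

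Of the 48 genes, 46 reached that minimum. The other 2 were PSMB9, an immunoproteasome subunit with 29, 44 and 50 reads, and PSMB11, the thymus core subunit with 0, 1 and 0 reads. Another tissue-restricted gene, PSMA8 of the testis core, had 106, 93 and 126 reads, but none of them was exonic and its TPM was 0 in every library. Its reads are therefore intronic counts and not a level of spliced transcript.

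Levels per annotated exon length of the gene, in the authors' TPM, spanned a wide range within the complex. The order of genes therefore depends on that length as well as on reads. PSMA7, an alpha ring subunit, stood first with 1197, 1231 and 1120 TPM on days 0, 3 and 5. PSMD2, a scaffold of the cap base, came next with 655, 662 and 594 TPM. The lowest of the 46, apart from PSMA8, was the assembly factor PSMG4, with 6.26, 7.44 and 7.58 TPM. Among the 7 constitutive beta ring genes PSMB2 was the lowest, at 106, 112 and 114 TPM, and PSMB6 came next at 315, 323 and 288 TPM. Of the 7 alpha ring genes PSMA2, PSMA3 and PSMA4 stayed under 100 TPM, and PSMA4, with 6996 exon bases, had 127 CPM on day 0. TPM summed to 4918, 5174 and 4887 over the core, 3923, 4065 and 3840 over the cap, 666, 641 and 654 over the activators and 211, 230 and 235 over the assembly factors.

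**Figure D1:**
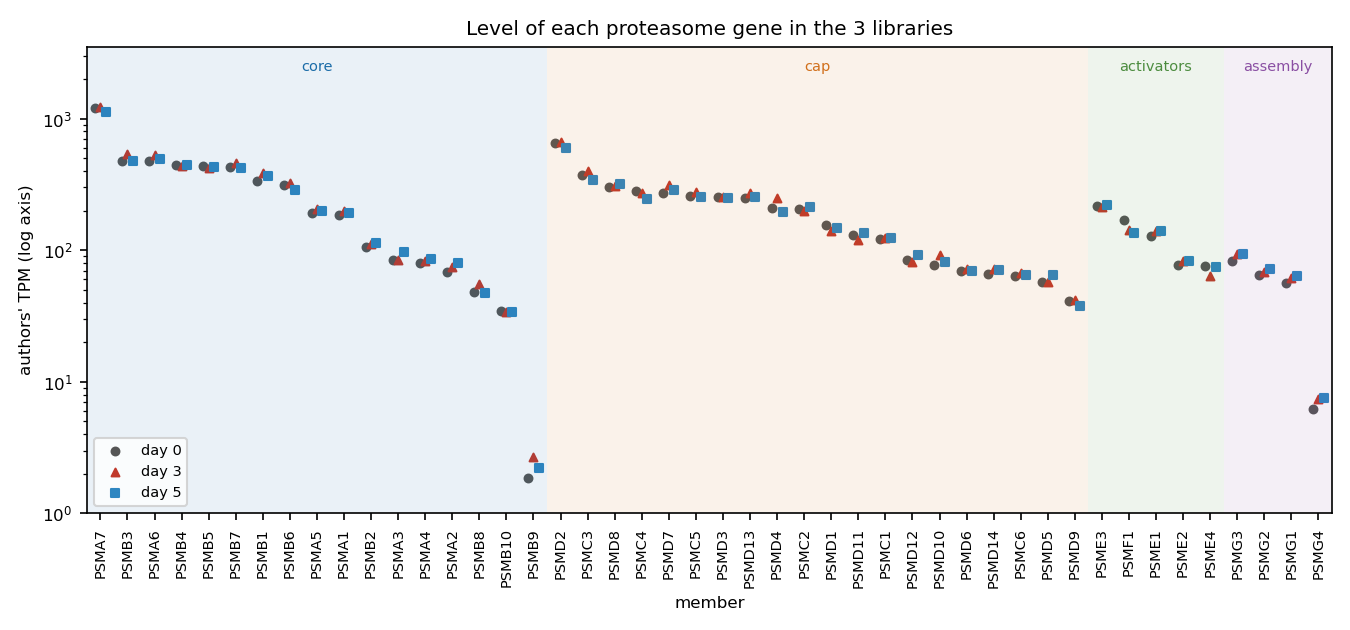
Level of each proteasome gene in the authors' TPM (log axis), with 1 point per library for days 0, 3 and 5. The 3 points of a gene lie close together compared with the spread between genes, from PSMA7 (1197 TPM on day 0) down to PSMG4 (6.26 TPM), with PSMB9 (1.85 TPM) below it.

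Since NRF1 acts through antioxidant response elements, the promoters were searched for the core letters of that element. The search used the 250 bases before each RefSeq start (GRCh38.p14), both strands, for 42 of the 48 genes with an entry, and motifs were searched separately, so matches of different motifs may overlap. The core TGACNNNGC was present in 13 of 42 (31.0%), against 13.2% of all 27305 genes with an entry. The 13 were PSMA4, PSMB3, PSMB9, PSMC5, PSMD3, PSMD5, PSMD9, PSMD12, PSME1, PSME2, PSME4, PSMG1 and PSMG2. PSMA7, PSMB1, PSMB6, PSMB7, PSMD4 and PSMG3 had no entry and were not searched, so their absence from the list is not an absence of the core. CCAAT, a common promoter box that is also the start of the endoplasmic reticulum stress element, was in 19 of 42 (45.2%), against 37.0%. The full stress element, TGATGNAA (the core of the element bound by C/EBP and ATF4), the heat shock element and TGACGTCA (the cAMP response element) were in 0 of 42, against 0.0916%, 3.89%, 0.557% and 2.03% of all genes. A match is a description of letters and says nothing on binding.

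To show where the element lies, 1 gene of each class is printed with the 120 bases before a RefSeq start. The strand is plus and the matched core is in capitals. The 4 genes are PSMB3 (chr17:38752621-38752740), PSMD3 (chr17:39980687-39980806), PSME1 (chr14:24136074-24136193) and PSMG2 (chr18:12658618-12658737).
PSMB3: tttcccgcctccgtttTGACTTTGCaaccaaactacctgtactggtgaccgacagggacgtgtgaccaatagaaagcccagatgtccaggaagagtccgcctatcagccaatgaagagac
PSMD3: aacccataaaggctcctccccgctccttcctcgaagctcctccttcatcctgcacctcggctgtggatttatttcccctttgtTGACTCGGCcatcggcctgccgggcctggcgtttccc
PSME1: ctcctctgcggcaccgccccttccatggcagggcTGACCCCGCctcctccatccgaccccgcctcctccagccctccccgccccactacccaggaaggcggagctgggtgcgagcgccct
PSMG2: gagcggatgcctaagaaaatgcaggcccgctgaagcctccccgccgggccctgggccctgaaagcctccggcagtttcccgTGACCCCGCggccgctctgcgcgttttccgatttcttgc
The cores start 104, 37, 86 and 39 bases before the RefSeq start used, so their position differs between the 4 genes. The gene starts in the deposited tables differ from these. All 4 windows run past the deposited start, and that of PSMG2 (deposited start 12658043) lies wholly inside the gene.

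On day 3 most proteasome genes were slightly above day 0, across all parts of the complex. The 48 genes together took 0.751% of the reads on day 0 (95% exact interval 0.747 to 0.755), 0.803% on day 3 (0.800 to 0.807) and 0.757% on day 5 (0.753 to 0.760). The day 3 library had the largest share, and the intervals of days 0 and 5 overlapped. In day 3 over day 0 the median log2 ratio of the 46 genes was 0.19 (1.14-fold), against 0.01 over all 12593 genes. Of the 46, 41 lay above 0 and 5 below (PSME4, PSMD1, PSMD11, PSMA8 and PSMF1), where 52.0% of all genes lay above. The interval lay wholly above 0 in 37 of 46 (25.2% of all genes) and wholly below in 2, PSME4 and PSMF1 (20.8%). Interval width falls with read count, so an interval off 0 is easier to reach for abundant genes such as these than for all genes.

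By size the differences were small. At 1.2-fold, 8 of 46 proteasome genes (17.4%) were higher in day 3 over day 0, against 9.98% of all genes, and 0 of 46 were lower, against 10.7%. The 8 were the cap genes PSMD4, PSMD7 and PSMD10, the core genes PSMA6, PSMB1, PSMB3 and PSMB8, and the assembly factor PSMG3. None of the 46 reached 1.5-fold in either direction, where 1.29% of all genes were higher and 2.53% lower. With the authors' TPM in place of TMM-normalised reads, 0 were higher (5.07% of all genes) and 1 was lower (20.8%). The median was then 0.07 against -0.08 for all genes. With library totals without TMM 2 of 46 were higher, against 5.32% of all genes, so the excess over all genes was not seen there. The counts therefore rest on the scaling, whereas in each of these scalings the members' median stayed above that of all genes.

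On day 5 the same genes lay closer to day 0. In day 5 over day 0 the median was 0.05 (0.01 over all genes), and 30 of 46 lay above 0 (51.1% of all genes) and 16 below (48.9%). The interval lay wholly above 0 in 21 (22.8% of all genes), wholly below in 9 (22.4%) and included 0 in 16. In 7 of 46 (15.2%) the interval lay wholly above 0 on day 3 and wholly below 0 on day 5, against 4.17% of all genes. At 1.2-fold 0 of 46 were higher, against 9.40% of all genes, and 1 of 46 was lower, PSMF1, against 7.82%. At 1.5-fold 0 of 46 were higher (1.75% of all genes) and 0 lower (1.28%). In day 5 over day 3 the median was -0.13 (0.00 over all genes) and 39 of 46 lay below 0, against 6294 of all 12593 genes (50%). The interval lay wholly below 0 in 32 (26.1% of all genes), wholly above in 2, PSMD11 and PSME4 (24.0%), and included 0 in 12. At 1.2-fold 9 of 46 were lower in that comparison, against 10.9% of all genes, and 0 were higher, against 12.4%. At 1.5-fold 0 were lower (0.969% of all genes) and 0 higher (2.28%). With TPM the median was -0.02 (0.09 over all genes) and with library totals -0.06 (0.07 over all genes). The 9 were PSMB3, PSMB6, PSMB8, PSMC3, PSMC4, PSMD2, PSMD4, PSMD9 and PSMD10. The count was 1 with TPM (5.66% of all genes lower) and 1 with library totals (5.65%). Comparisons here share libraries: both comparisons with day 0 use the same day 0 library, and both with day 3 use the same day 3 library, so their values are not independent.

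**Figure D2:**
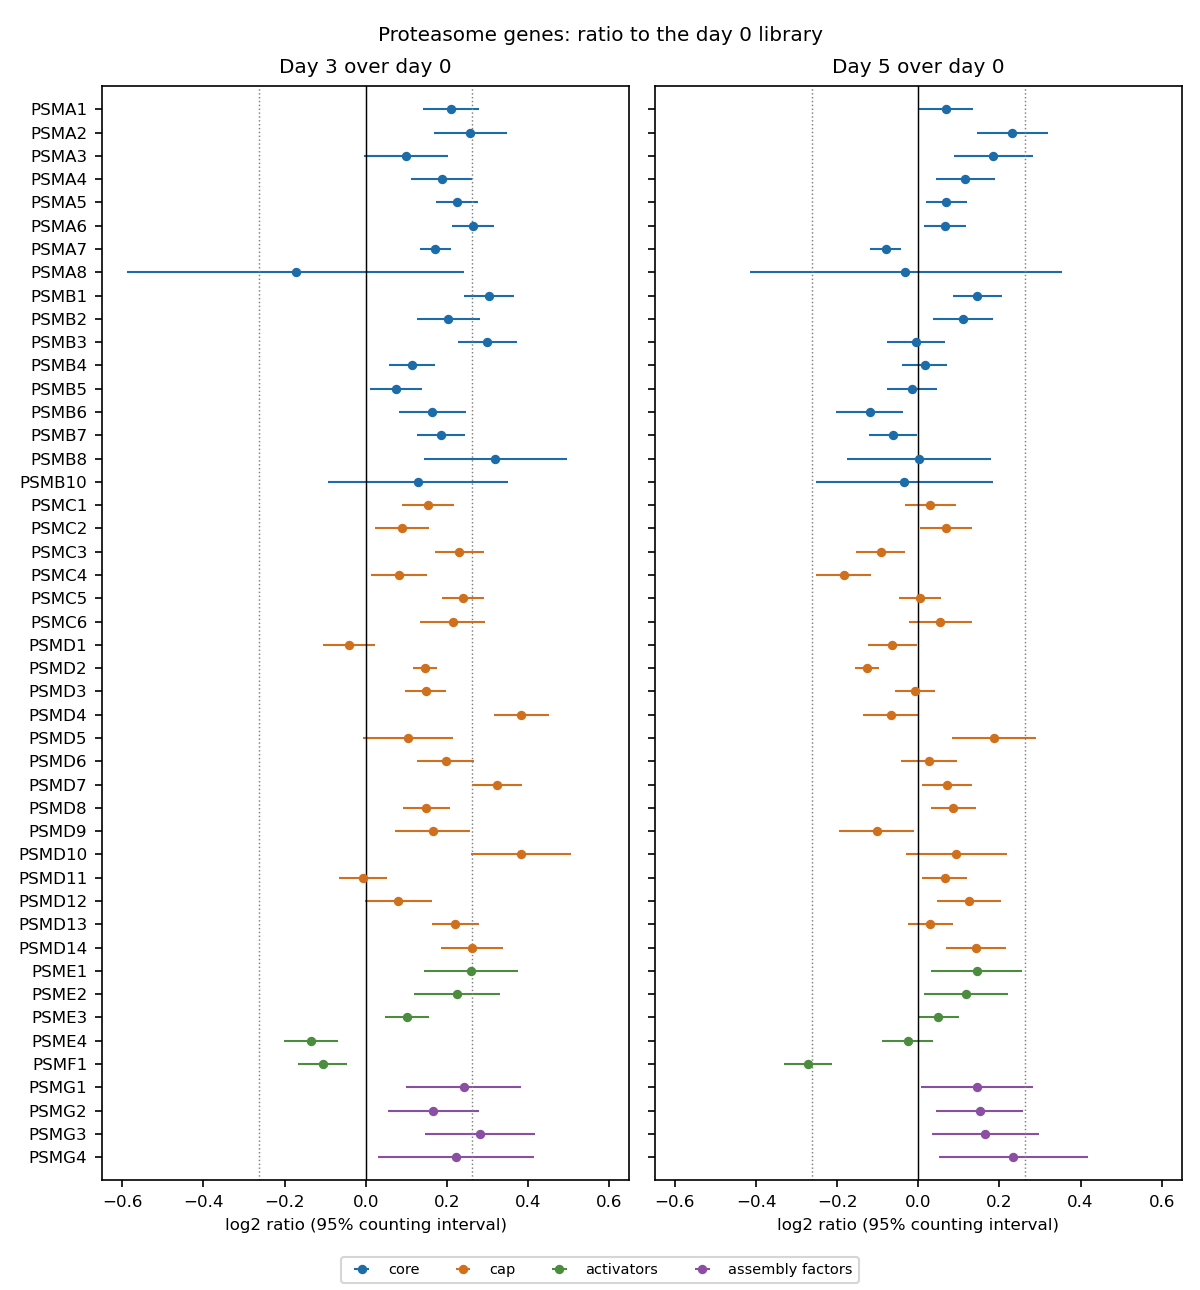
Log2 ratio of TMM-normalised reads to the day 0 library for each of the 46 proteasome genes compared, on day 3 (left) and day 5 (right), with 95% intervals that cover counting error only colours for the 4 classes and dotted lines at 1.2-fold. On day 3, 41 of 46 points lie right of 0; on day 5, 30 of 46 do, and PSMF1 lies farthest left.

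Median log2 ratios in day 3 over day 0 were 0.19 for the core, 0.16 for the cap, 0.10 for the activators and 0.23 for the assembly factors. In day 5 over day 0 they were 0.02, 0.03, 0.05 and 0.16. The class medians were thus all positive at both times, with these exceptions among the alternatives tried. The activators had -0.03 on day 3 with TPM. On day 5 the core and cap had -0.03 and -0.02 with the length and GC trends removed, and the core had -0.0059 with the length trend alone removed and -0.0022 over genes of at least 90% unique reads. The assembly factors had the highest median at both times, but not on day 3 with trends removed. With the length trend removed the cap and core had 0.15 and 0.132 and the assembly factors 0.128, and with both trends removed these were 0.14, 0.124 and 0.121. With 1 library per time the difference between classes was not tested.

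**Figure D3:**
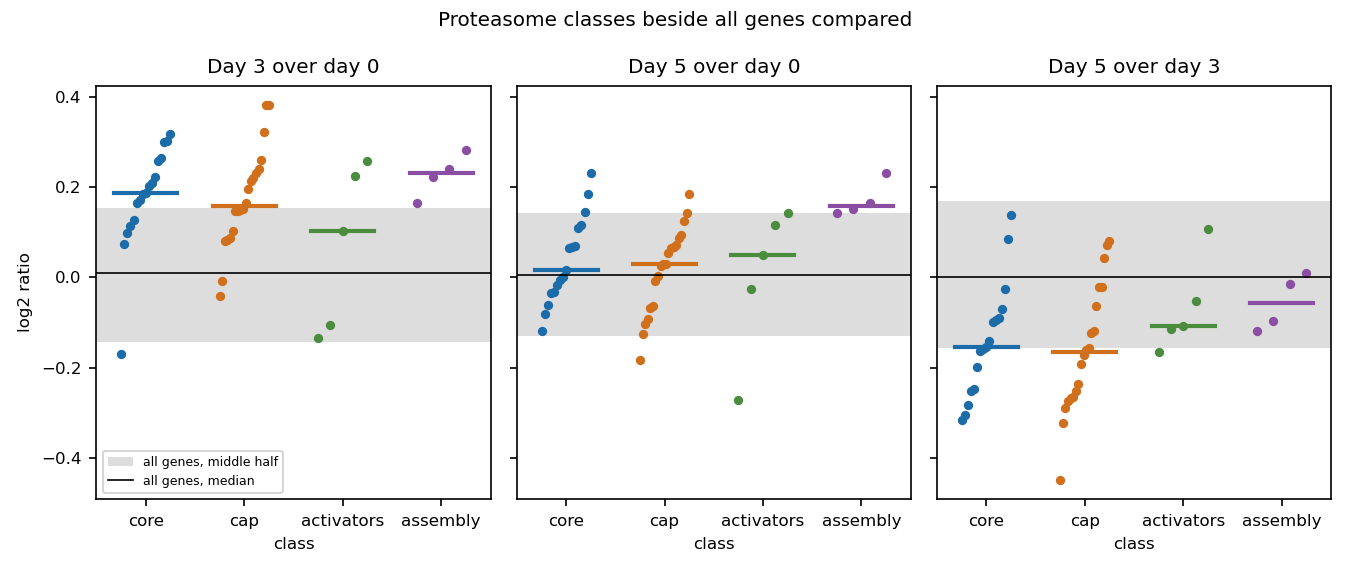
Log2 ratios of the genes of each class (points) with the class median (bar), and the median and middle 50% of all genes compared (line and grey band), for day 3 over day 0, day 5 over day 0 and day 5 over day 3. All 4 class medians lie above 0 on day 3, from 0.10 to 0.23, and all 4 lie below 0 in day 5 over day 3, where the activators had 0.01 with TPM and the assembly factors had 0.03 with TPM, 0.02 without TMM and 0.05 with both trends removed.

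Within the core, the alpha ring had a median log2 ratio of 0.21 on day 3 and the constitutive beta ring 0.19. All 7 genes of each ring lay above 0 on day 3. With the length and GC trends removed, 6 of 7 alpha genes (not PSMA7) and 4 of 7 beta genes (not PSMB4, PSMB5 and PSMB6) did, and with TPM PSMB4 and PSMB5 lay below 0. On day 5 the alpha ring median was 0.07 and that of the beta ring -0.01. On day 5, 6 of the 7 alpha genes and 3 of the 7 beta genes lay above 0. With both trends removed these counts were 3 and 1, and the alpha ring median was -0.00067, so the day 5 contrast between the rings depends on that correction.

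The 3 constitutive catalytic subunits had small ratios. PSMB5, the chymotrypsin-like site, had 3890, 4048 and 4673 reads, or 180, 190 and 178 normalised CPM, and log2 ratios of 0.07 and -0.02 on days 3 and 5. PSMB6, the caspase-like site, had 105, 118 and 96.5 CPM and ratios of 0.16 and -0.12. PSMB7, the trypsin-like site, had 198, 225 and 190 CPM and ratios of 0.19 and -0.06. In normalised CPM, in all 3 genes, the day 3 library was the highest and the day 5 library the lowest, and for PSMB5 the interval of the day 5 ratio included 0. In TPM, PSMB5 was instead lowest on day 3 (436, 423 and 428), and with both trends removed the day 3 ratios were -0.09 for PSMB5 and -0.03 for PSMB6.

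Among the other ring genes, PSMB1 and PSMB3 had the highest constitutive beta ratios on day 3. PSMB1 had 3863, 4713 and 5191 reads (179, 221 and 198 CPM), with a day 3 log2 ratio of 0.30 (95% interval 0.24 to 0.37). PSMB3, whose promoter is shown above, had 2842, 3458 and 3439 reads (132, 162 and 131 CPM), with 0.30 (0.23 to 0.37) on day 3 and -0.01 on day 5. PSMA7, the highest in TPM, had 485, 546 and 458 CPM, with 0.17 and -0.08. PSMA3 differed from these in being highest on day 5, with 68.4, 73.2 and 77.7 CPM and ratios of 0.10 and 0.18. Its interval in day 5 over day 3 included 0, and with the length and GC trends removed its ratios were 0.05 and -0.00067. With those trends removed the day 3 ratios were 0.20 for PSMB1, 0.12 for PSMB3 and -0.01 for PSMA7.

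PSMA2 and PSMA6 need care, since near-identical or overlapping genes share their reads. PSMA2 had 1805, 2134 and 2575 reads and log2 ratios of 0.26 and 0.23, but 5.00% of them mapped to 1 place only, and unique reads alone gave -0.68 on day 5. It overlaps the same-strand gene AC010132.3. PSMA6 had 5465, 6492 and 6948 reads, 49.9% of them unique, with ratios of 0.27 and 0.07. PSMA1 (55.1% unique), PSMC1 (29.2%), PSMD7 (69.5%) and PSMD9 (72.6%) are likewise uncertain.

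The immunoproteasome genes were expressed far below their constitutive partners. PSMB8, the inducible partner of PSMB5, had 481, 593 and 585 reads and 22.3, 27.8 and 22.3 CPM, which is 1.25-fold on day 3 (log2 0.32, interval 0.14 to 0.50) and a log2 ratio of 0.00 on day 5. In TPM it stood at 11.1%, 13.0% and 11.0% of PSMB5 on days 0, 3 and 5. PSMB9 stood at 0.587%, 0.829% and 0.766% of PSMB6, on 29, 44 and 50 reads, and its interval on day 3 included 0 (log2 0.61, interval -0.09 to 1.35). PSMB10 had 323, 349 and 383 reads and stood at 7.96%, 7.39% and 8.04% of PSMB7, with a day 3 ratio of 0.13 whose interval also included 0.

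In the cap, the 6 base ATPases (PSMC1 to PSMC6), which unfold the substrate, all lay above 0 on day 3, with a median of 0.18, and their day 5 median was 0.02. PSMC5 had the highest day 3 ratio among them, 0.24, and PSMC4 the lowest, 0.08. PSMC4 had 156, 165 and 137 CPM and a day 5 log2 ratio of -0.18 (interval -0.25 to -0.12). The lid genes had medians of 0.17 and 0.07, and PSMD3, the lid scaffold with a printed promoter, had 0.15 and -0.01. PSMD14, the lid enzyme that cuts ubiquitin chains off the substrate, had 119, 143 and 131 CPM and ratios of 0.26 and 0.14. With the length and GC trends removed the ratios of PSMD14 were 0.35 and -0.04. PSMD11, a lid scaffold, had 217, 216 and 227 CPM and a ratio of -0.01 on day 3.

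PSMD4, the ubiquitin receptor of the base, had, with PSMD10, the largest day 3 ratio of the 46 genes compared. With the length and GC trends removed its ratio was 0.28, and 5 others were larger: PSMD14 (0.35), PSMG4 (0.34), PSMD6 (0.33), PSMC6 (0.30) and PSMD10 (0.28). It had 3155, 4068 and 3659 reads, or 146, 190 and 139 CPM, and log2 ratios of 0.38 (interval 0.32 to 0.45) on day 3 and -0.07 (-0.14 to 0.00) on day 5. The day 3 library stood alone above the others, and day 5 over day 3 was 0.732-fold (0.700 to 0.765). PSMD10, a base assembly chaperone also called gankyrin, had a like ratio, with 948, 1222 and 1229 reads, or 43.9, 57.2 and 46.8 CPM, and a log2 ratio of 0.38 (0.26 to 0.51) on day 3. PSMD5, another base chaperone, was instead highest on day 5, with 60.0, 64.5 and 68.3 CPM and ratios of 0.10 and 0.19. Its interval in day 5 over day 3 included 0, and with both trends removed its ratios were 0.09 and 0.09. PSMD2 had 17717, 19394 and 19721 reads, or 820, 908 and 751 CPM, with ratios of 0.15 and -0.13. PSMD1, the other scaffold, had 190, 185 and 182 CPM, with -0.04 and -0.06.

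The activators differed in their day 3 ratios. PSME1 and PSME2, the subunits of the interferon-inducible activator, had 52.4, 62.7 and 57.9 CPM and 62.2, 72.7 and 67.4 CPM, with day 3 log2 ratios of 0.26 and 0.23. PSME3, the nuclear activator, had 255, 274 and 264 CPM and a day 3 ratio of 0.10. PSME4, a nuclear activator linked to histone turnover, had 181, 165 and 177 CPM and a day 3 ratio of -0.13 (interval -0.20 to -0.07). PSME4 has one of the longest exon lengths of the group, 10241 bases. Its day 3 ratio was 0.01 once trends with exon length and GC content across all genes were removed. With the same trends removed PSME1, PSME2 and PSME3 had 0.09, 0.15 and 0.09, so PSME1 and PSME3 then lay together.

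PSMF1, known as PI31, a protein first described as an inhibitor of the core, was the one proteasome gene lower on day 5. It had 4656, 4275 and 4684 reads, or 215, 200 and 178 CPM, with log2 ratios of -0.11 on day 3 and -0.27 on day 5 (interval -0.33 to -0.21, 0.828-fold). Its normalised level was highest on day 0 and lowest on day 5, and its day 5 ratio was -0.27 with both trends removed. In TPM it stood at 168, 143 and 136. The labels do not say that counting used strand. PSMF1 overlaps the antisense gene AL031665.2, which had no reads. The overlapping genes with any read were TMEM74B, with 5, 3 and 11 reads, and AL031665.1, with 7, 8 and 2.

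The assembly factors, which build the alpha ring, all lay above 0 at both times. PSMG3 had 38.0, 46.2 and 42.6 CPM, with log2 ratios of 0.28 and 0.16. PSMG1 had 34.9, 41.3 and 38.6 CPM, with 0.24 and 0.14. PSMG2 had 56.7, 63.7 and 63.0 CPM, with 0.17 and 0.15, and PSMG4 had 19.3, 22.5 and 22.6 CPM, with 0.22 and 0.23. PSMG2 and PSMG4 differed little between days 3 and 5, and the intervals of all 4 in day 5 over day 3 included 0.

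Annotated exon length and GC content moved with the ratios over all genes. In day 3 over day 0 the Spearman correlation across genes between log2 ratio and exon length was -0.37 over 12497 genes and -0.21 over the 46 proteasome genes, described only, since all points share the same 2 libraries. The correlation with GC content was -0.41 over all genes and -0.40 over the members in day 5 over day 0, and -0.53 and -0.43 in day 5 over day 3. Proteasome genes under 3000 exon bases (18 genes) had a median of 0.24 on day 3, against 0.14 over all genes of that length. Those of 5000 bases and more (16 genes) had 0.16, against -0.06. With both trends removed, the members' median was 0.12 on day 3, -0.01 on day 5 and -0.12 in day 5 over day 3, and that of the constitutive beta ring was 0.03 on day 3. The part of length in the result was not tested.

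**Figure D4:**
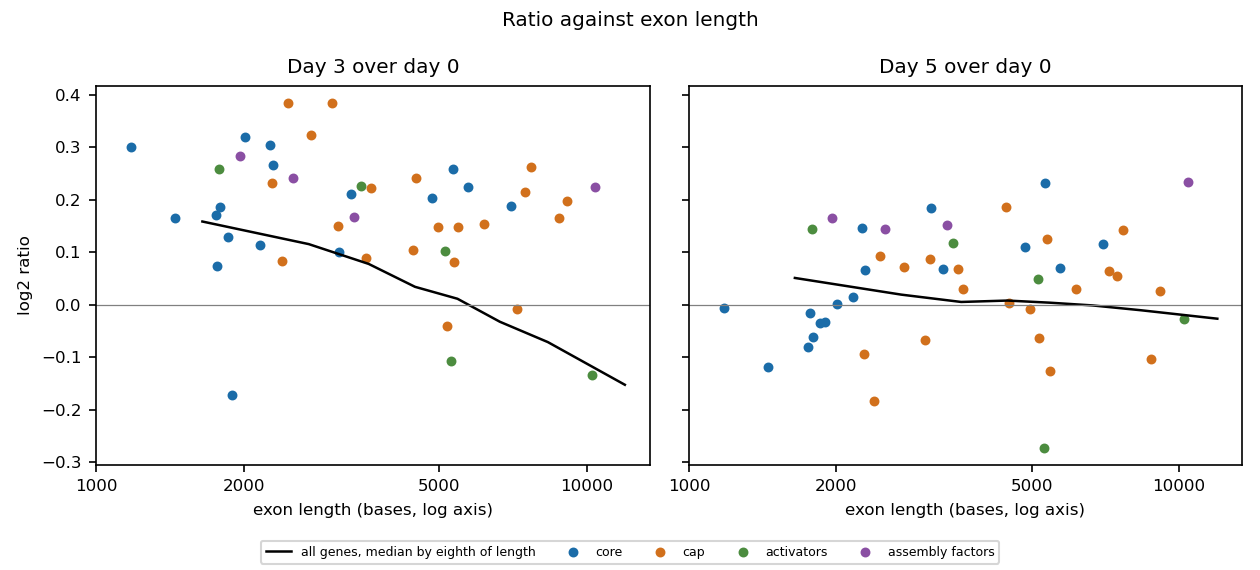
Log2 ratio of the proteasome genes against exon length (log axis) for day 3 (left) and day 5 (right) over day 0, coloured by class, with the median over all genes by eighth of length as a line. On day 3 the line falls with length, and most proteasome genes lie above it.

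Genes that work beside the proteasome differed little as lists. Of 12 other proteasome and assembly genes, 2 were higher on day 3 (16.7%, against 9.98% of all genes), POMP, which matures the core, and ZFAND2A, a proteasome-associated factor, and 0 were lower (10.7% of all genes), with a median of 0.06. POMP had 1784, 2209 and 2686 reads and log2 ratios of 0.33 and 0.31, and was the 1 gene of that list higher on day 5 (9.40% of all genes). Its day 5 ratio was 0.01 with the length and GC trends removed. ADRM1, the other ubiquitin receptor of the cap, had ratios of 0.05 and -0.23. The 12 ubiquitin and shuttle genes compared had a median of 0.08 on day 3 and -0.05 on day 5. Among them RPS27A, which encodes ubiquitin fused to a ribosomal protein, had 0.32 on day 3, and UBA6, a ubiquitin-activating enzyme, was the 1 gene lower, with -0.45. UBB, a polyubiquitin gene, had 0.24 on day 3 and -0.32 on day 5.

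None of 8 genes of NRF1 activation reached 1.2-fold with an interval excluding 1 in either comparison with day 0, where 9.98% and 9.40% of all genes were higher and 10.7% and 7.82% lower. In day 5 over day 3, DDI2 was higher (log2 0.38, 12.4% of all genes higher) and VCP, the segregase, lower (-0.31, 10.9% lower). NFE2L1 had log2 ratios of 0.09 and -0.08. DDI2, the protease that activates NRF1, had 1001, 829 and 1330 reads and ratios of -0.25 and 0.13. The antigen presentation and interferon genes (17 genes) had a median of 0.12 on day 3 and -0.03 on day 5. NLRC5, an activator of class I genes, had log2 ratios of 0.40 and 0.61, GBP1 had 0.33 and 0.06, and the ubiquitin-like ISG15 had 0.38 and 0.02. Of 21 genes of endoplasmic reticulum degradation, 2 were higher on day 3 (HERPUD1 0.67 and RNF139 0.38), or 9.52% against 9.98% of all genes, and 1 was lower, SYVN1. On day 5, 2 were higher (HERPUD1 0.43 and EDEM3 0.27, 9.40% of all genes) and SYVN1 was lower. Mesenchymal markers reached 1 TPM in 6 of 9 in each library, with summed TPM of 4110, 4217 and 3673, mostly vimentin. Leukocyte markers at 1 TPM or more numbered 1, 1 and 4 of 9 on days 0, 3 and 5, with summed TPM of 85.2, 94.6 and 85.5, mostly CD68. Hepatocyte markers numbered 1, 1 and 6 of 8, with 799, 665 and 725 TPM, mostly SERPINA1. Erythroid markers numbered 0, 1 and 3 of 6, with 0, 1.57 and 11.4 TPM. The part of such RNA in the day 5 values was not tested.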

How the data were processed

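SMARTer mRNA libraries were made from total RNA, per the labels' protocols. Per the file headers, the deposited tables give read counts (total, unique, exon and intron) and TPM per gene. The aligner, like the counter, is not given in the sources used here. Per the submitters' processing notes, the build is mm10, a mouse build, but all 48 members have the start and end of GENCODE 29, so coordinates are GRCh38. The 3 columns of a series table were not used.

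Total gene reads were scaled by TMM (edgeR 4.0.16, R 4.3.3), which gave factors of 1.01, 0.968 and 1.02. Ratios used a prior count of 0.5 and exact conditional 95% intervals. With 1 library per group, no test was run. Trends with exon length and GC content were removed by lowess (span 0.3) in statsmodels 0.14.6. A floor of 3 reads equals 0.139, 0.140 and 0.114 CPM on days 0, 3 and 5. The steps were tested on simulated data.

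Genes given with values in each library were, per class, the 2 highest and 2 lowest ratios to day 0, the catalytic subunits, SYVN1, and up to 3 per other list with the largest ratio. PSMA6, PSMB2, PSMB3, PSMC5, PSMD3, PSME3 and NFE2L1 were added after their values were seen. Members and lists were chosen with earlier results of these data known. Alternatives were DESeq2 1.42.0 size factors, no TMM, TPM, unique or exon reads, prior counts, read minimums and trend removal. Leaving out PSMA8 was added after seeing the data.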

Additional observations from a re-analysis of the deposited data

Results flagged for a closer look

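In 7 of 46 proteasome genes (15.2%, against 4.17% of all genes) the 95% counting interval lay above 0 in day 3 over day 0 and below 0 in day 5 over day 0. The log2 ratios on days 3 and 5 were 0.15 and -0.13 for PSMD2, 0.19 and -0.06 for PSMB7, 0.23 and -0.09 for PSMC3, 0.17 and -0.10 for PSMD9, 0.16 and -0.12 for PSMB6, 0.08 and -0.18 for PSMC4, and 0.17 and -0.08 for PSMA7. With the length and GC trends removed, the day 3 ratio was -0.03 for PSMB6, -0.06 for PSMC4 and -0.01 for PSMA7, so the opposite signs of these 3 depend on that correction. With it, PSMD2 had 0.12 and -0.05, PSMB7 0.03 and -0.11, PSMC3 0.08 and -0.06, and PSMD9 0.25 and -0.01. These kept opposite signs, but some lay close to 0. The share of all genes was not recomputed with trends removed. Abundant genes such as these also reach an interval off 0 more easily. In TPM PSMC4 stood at 282, 272 and 246 on days 0, 3 and 5. The 7 comprise an alpha ring gene, a pair of catalytic beta genes, a pair of base ATPases, a base scaffold and a base chaperone. Each time has 1 library and both ratios share the day 0 library, so the difference between days was not tested.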

How the results depend on the processing

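No paired analysis was possible because each time has 1 library. Signs were followed for 15 medians and for 78 ratios of the proteasome genes named by rule, not for every gene called. PSMA6, PSMB3, PSMC3, PSMD7 and PSMD9 were not among them. Of the ratios followed, none past 1.2-fold turned its sign. In at least 1 alternative 6 of 15 medians and 32 of 78 ratios, all smaller, did so. With the authors' TPM, day 3 over day 0 gave medians of 0.0691 for all members, 0.0757 for the core, 0.0265 for the cap and -0.0263 for the activators. At 1.2-fold 0 members were higher (5.07% of all genes) and 1 lower (20.8%). Day 5 over day 3 then gave -0.0155, -0.0509, -0.0522 and 0.0131, with 1 lower (5.66% of all genes). With library totals without TMM, day 3 over day 0 gave 0.0917 for the cap and 0.0347 for the activators, with 2 higher (5.32% of all genes). Day 5 over day 3 then gave -0.058 for all members, -0.0798 for the core, -0.091 for the cap and -0.0341 for the activators. In it 1 member was lower (5.65% of all genes). With the length trend removed, 5 were higher on day 3 (7.08% of all genes). Day 5 over day 3 then gave 3 lower (9.43% of all genes), -0.078 for the core and -0.0381 for the activators. With length and GC trends removed, day 5 over day 3 gave -0.0165 for the activators, and 1 member was higher on day 5 (6.88% of all genes). Unique reads gave 1 higher and 2 lower on day 5, and exon reads 1 higher on day 5 and 5 lower in day 5 over day 3. The cause was not tested. Over all alternatives, 29 recomputed medians and counts moved and 265 stayed close to the reported value. With 1 library per time, counting error is a lower limit on the error.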
